A study of Homo sapiens with 12 samples.

Results

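The genes described here encode the 3 TGF-β ligands (TGFB1, TGFB2 and TGFB3) and the proteins that hold the ligands in their latent form (LTBP1, LTBP2, LTBP3, LTBP4 and LRRC32). They were taken by gene name, which gave 8 of the 58735 genes in the deposited count table, and all 8 were among the 18560 genes with enough counts to be tested. RNA was sequenced from LX-2, an established human hepatic stellate cell line of wild-type genotype, in 12 libraries that form 4 groups of 3. The con group was untreated. The TGFB group received recombinant TGF-β1 at 5 ng/ml for 24 h. The SiNAT10 group received an siRNA against NAT10, the enzyme that acetylates cytidine in RNA, delivered by lipid transfection. The SiNAT10_TGFB group received the same siRNA 48 h before the TGF-β1 treatment. No group with a control siRNA is named in the labels, so effects of the siRNA and of transfection cannot be told apart here, and no harvest time is given for SiNAT10. The siRNA groups may therefore differ in time after transfection as well as in TGF-β1. Comparisons between them, and the interaction, cannot tell these apart. All libraries come from the same cell line, and the labels call the replicates biological without saying what they were drawn from. The p-values therefore rest on library-to-library spread alone, which may be technical.

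TGF-β is made as a precursor that is cut by furin-type proteases, after which the cleaved propeptide stays wrapped around the growth factor and keeps it latent. Latent complexes are joined to latent TGF-β binding proteins, which tether them to fibrillin and fibronectin in the extracellular matrix, or to LRRC32 (GARP), which displays them on the surface of regulatory T cells and platelets. Hepatic stellate cells are the main collagen-producing cells of the injured liver, and TGF-β1 is a principal signal for their activation.

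Total counts ranged from 25877008 to 35132582 per library, with at most 28311434 in every siRNA library and at least 29797990 in every other, so that 3 counts corresponded to 0.0871 to 0.115 CPM (counts scaled to a common library size). NAT10 was at 62.9 to 69.9 CPM in con and 65.6 to 67.8 in TGFB, against 17.9 to 19.5 in SiNAT10 and 15.8 to 20.7 in SiNAT10_TGFB. Of 12 markers of stellate cells and myofibroblasts, 7 had a mean of at least 1 CPM in con, including ACTA2, PDGFRB and COL1A1, whereas LRAT, the enzyme that stores retinoid in quiescent stellate cells, had no count in any library. The summed level of these 12 markers was 4530 to 4780 CPM in con, 10000 to 10700 in TGFB, 1830 to 1910 in SiNAT10 and 2420 to 2670 in SiNAT10_TGFB. Marker sums of 5 cholangiocyte genes were 41.6 to 47.4 CPM in con, 41.3 to 44.3 in TGFB, 66.2 to 73.9 in SiNAT10 and 40.6 to 43.8 in SiNAT10_TGFB, carried by KRT7 and SOX9. The 7 hepatocyte markers summed to 15.1 to 19 CPM in con, 13.7 to 15 in TGFB, 23.2 to 24.4 in SiNAT10 and 24.4 to 28.4 in SiNAT10_TGFB, with SERPINA1 alone over 1 CPM and TTR at 0 in every group. The 6 endothelial markers never summed above 2.44 CPM. Among 8 macrophage and leukocyte markers, only CD14 reached a mean of 1 CPM, and the sums ran from 1.9 to 6.21. The part of these marker levels in the results below was not tested.

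The ligand genes differ at the site through which αv integrins open the latent complex, an arginine-glycine-aspartate triplet in the propeptides of TGF-β1 and TGF-β3 that TGF-β2 lacks. The coding sequence around this site is shown because the ligand genes are compared throughout and it separates TGFB2 from the others. Each stretch holds 57 bases of the GENCODE 29 transcript (build hg38), and capitals mark the codons of the triplet in TGFB1 and TGFB3 and the codons aligned to it in TGFB2.
TGFB1 coding stretch: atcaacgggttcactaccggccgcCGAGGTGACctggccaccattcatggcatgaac
TGFB2 coding stretch: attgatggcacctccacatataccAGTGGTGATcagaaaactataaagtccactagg
TGFB3 coding stretch: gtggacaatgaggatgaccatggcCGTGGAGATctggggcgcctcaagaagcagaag
The TGFB1 stretch spans an exon boundary (chr19:41342170-41342176 and chr19:41341981-41342030, minus strand). The TGFB2 stretch lies within an exon at chr1:218435972-218436028 on the plus strand, and the TGFB3 stretch within an exon at chr14:75963429-75963485 on the minus strand.

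Upstream sequence was examined because TGFB1 and TGFB2 changed together with TGF-β1 while TGFB3 did not pass the test. RefSeq start sites (GRCh38.p14) matched 7 of the 8 genes, LRRC32 being the exception, and gave 12 start sites. Capitals mark any of 6 motifs searched on both strands over the 250 bases before the start: the SMAD-binding box CAGAC, the AP-1 site TGANTCA, the cAMP response element TGACGTCA, the GC box GGGCGG (which reads CCGCCC when it lies on the opposite strand), the TATA box written TATAAA and the E box written CACGTG. The sequences shown belong to the start site nearest to the 5′ end of each deposited gene. That site lay upstream of the 5′ end by 11 bases for TGFB1, 899 for TGFB2 and 20 for TGFB3.
TGFB1 upstream, chr19:41353923-41354172, minus strand: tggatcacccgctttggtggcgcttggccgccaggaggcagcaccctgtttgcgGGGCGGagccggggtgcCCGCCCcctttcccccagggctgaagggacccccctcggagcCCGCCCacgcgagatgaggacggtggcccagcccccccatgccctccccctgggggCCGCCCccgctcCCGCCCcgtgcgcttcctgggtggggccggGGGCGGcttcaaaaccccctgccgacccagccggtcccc
TGFB2 upstream, chr1:218345086-218345335, plus strand: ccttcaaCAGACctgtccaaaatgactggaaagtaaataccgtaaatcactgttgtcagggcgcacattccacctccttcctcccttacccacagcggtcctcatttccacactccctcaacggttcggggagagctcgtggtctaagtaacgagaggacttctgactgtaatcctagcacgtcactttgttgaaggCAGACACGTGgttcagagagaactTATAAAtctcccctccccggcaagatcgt
TGFB3 upstream, chr14:75983012-75983261, minus strand: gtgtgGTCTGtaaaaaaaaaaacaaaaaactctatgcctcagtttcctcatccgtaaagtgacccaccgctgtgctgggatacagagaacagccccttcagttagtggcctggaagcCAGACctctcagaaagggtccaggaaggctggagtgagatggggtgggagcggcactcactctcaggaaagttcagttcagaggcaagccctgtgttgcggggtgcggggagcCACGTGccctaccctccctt
The TGFB1 sequence was 76.8% G+C, held 6 GC boxes and none of the other motifs. The TGFB2 sequence was 50.4% G+C and held 2 CAGAC boxes, a TATA box whose first base lay 29 bases before the start, and an E box that overlapped the second CAGAC. The TGFB3 sequence was 54.8% G+C, with 2 CAGAC boxes and an E box. A second TGFB3 start site, 996 bases inside the deposited gene, had a TATA box and no other motif. LTBP2 had 3 GC boxes and no CAGAC in its upstream bases. At its nearest start site LTBP1 held 2 CAGAC boxes and a cAMP response element. LTBP3 held 1 GC box there, and LTBP4 held 1 CAGAC and 1 GC box. The farther start sites held 1 CAGAC each in LTBP1, 1 GC box in LTBP3 and 5 GC boxes in LTBP4. Of 35116 promoters searched in the same way, 38.0% held the SMAD-binding box, 6.6% the AP-1 site, 1.6% the cAMP response element, 42.6% the GC box, 10.7% the TATA box and 6.3% the E box, and their median G+C was 58.0%. These matches describe letters only and were not related to binding of any factor.

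Levels were compared between genes as FPKM, the deposited unit that divides by gene length and by library total. For the 8 genes this length was the merged bases of all annotated exons: 10298 for LTBP3, 8108 for LTBP4 and 7329 for LTBP1. Orders, shares and ratios between genes in FPKM rest on that length. The deposited values carry 1 further factor per library (0.9334 to 1.088). TGFB1 was the highest of the 8 genes in every group, at 59.5 ± 3.19 FPKM (SD, n = 3) in con and 159 ± 9.62 in TGFB. In con it was followed by LTBP4 at 23.6 ± 2.45, then by TGFB2 at 14.8 ± 0.906 and LTBP3 at 14.2 ± 0.937, whose ranges overlapped. LTBP1 (4.94 ± 0.392) and LTBP2 (1.82 ± 0.158) lay lower. LRRC32 (0.472 ± 0.0939) and TGFB3 (0.409 ± 0.079) were lowest and overlapped each other. The place of TGFB2 in this order varied: its range overlapped that of LTBP4 in TGFB (45.6 ± 1.59 against 44.3 ± 2.4), of LTBP2 in SiNAT10 (1.79 ± 0.398 against 1.57 ± 0.123) and of LTBP1 in SiNAT10_TGFB (4.2 ± 0.68 against 3.48 ± 0.339). LTBP2 lay below LTBP1 in con and above it in TGFB, at 11 ± 0.518 against 6.02 ± 0.168. TGFB3 stayed between 0.409 and 0.52 FPKM on average in all 4 groups. The deposited genes lie on chromosome 19 (TGFB1, chr19:41301587-41353911, and LTBP4, chr19:40592883-40629818), chromosome 14 (TGFB3, chr14:75958099-75982991, and LTBP2, chr14:74498170-74612378), chromosome 11 (LTBP3, chr11:65538805-65558930, and LRRC32, chr11:76657524-76670747), chromosome 1 (TGFB2, chr1:218346235-218444619) and chromosome 2 (LTBP1, chr2:32946972-33399509).

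**Figure D1:**
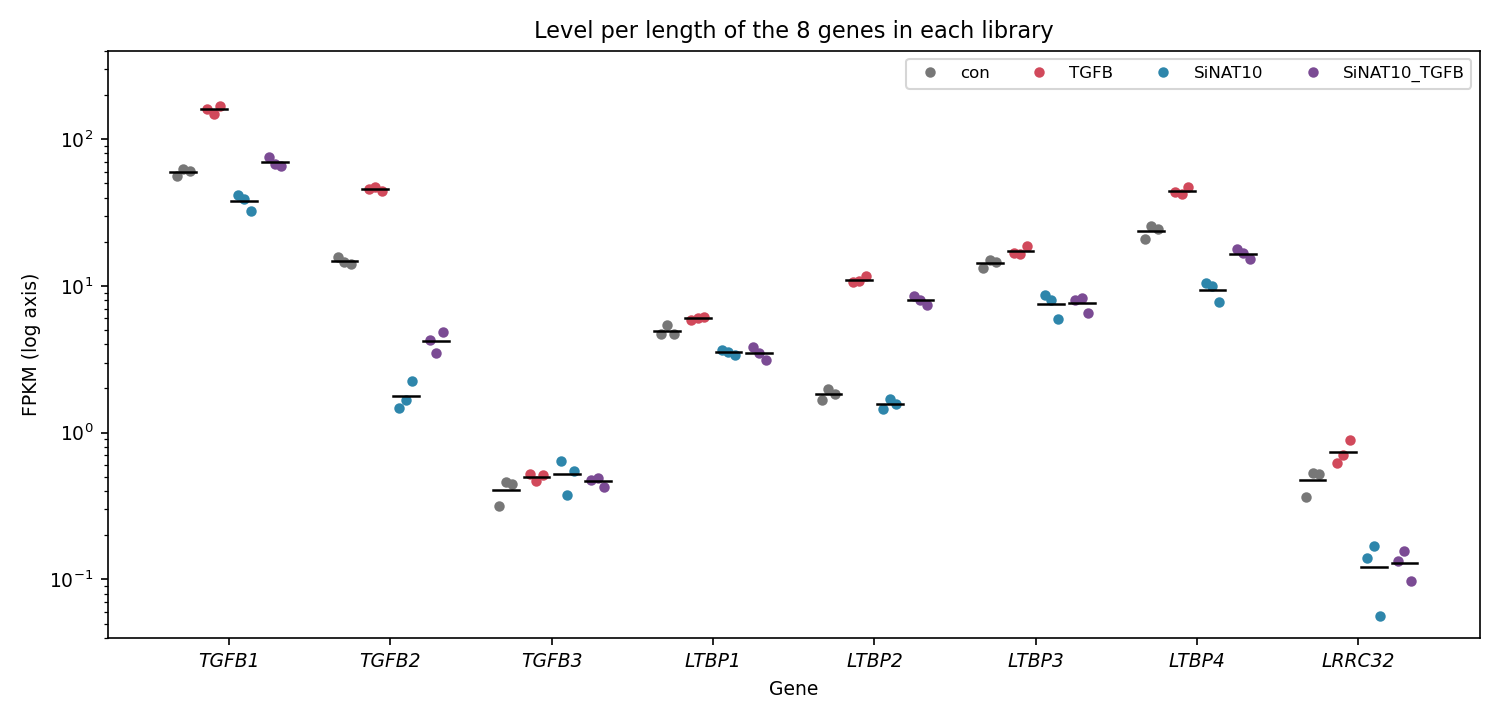
FPKM of the 8 genes (log axis) in each of the 12 libraries, with 1 point per library, coloured by group, and a bar at the group mean. TGFB1 was highest in each group, TGFB2 ranged from 1.79 to 45.6 FPKM between group means, and TGFB3 and LRRC32 stayed under 1 FPKM.

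The first comparison asked what TGF-β1 did to the cells' own RNA for the ligands and their binding proteins. With TGF-β1 and no siRNA, 6 of the 8 genes passed the test and all 6 were higher: TGFB1, TGFB2, LTBP1, LTBP2, LTBP3 and LTBP4. Over all tested genes, 24.1% passed this test, 11.9% as higher and 12.2% as lower. The median log2 fold change was 0.78 over the 8 genes and −0.006 over all tested genes. Each value below is in CPM scaled by the trimmed mean of M values (TMM), and calls were made with edgeR's quasi-likelihood test at a Benjamini-Hochberg adjusted p under 0.05. In bulk RNA, a change in the share of cells that express a gene and a change in RNA per cell cannot be told apart.

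TGFB1, the ligand used for the treatment, was at 182, 202 and 196 CPM in con libraries 1 to 3 and at 523, 483 and 543 in TGFB. Every treated library lay above every control, and the fold was 2.67 (log2 1.42, SE 0.078, edgeR quasi-likelihood adjusted p = 1.27e-12). TGFB2 was at 81.7, 74.8 and 72.9 CPM in con and 236, 244 and 227 in TGFB. The groups were again separate, and TGFB2 rose 3.08-fold (log2 1.62, SE 0.1, edgeR quasi-likelihood adjusted p = 9.89e-12). TGFB3 was at 1.57, 2.27 and 2.22 CPM in con and 2.56, 2.3 and 2.53 in TGFB. The TGFB libraries were all above the con libraries, the nearest by little, and TGFB3 did not pass the test (log2 0.29, 95% interval −0.19 to 0.77, edgeR quasi-likelihood adjusted p = 0.41). TGFB3 had 52 to 91 counts per library over the 12 libraries, and its interval included the change seen in LTBP1 (log2 0.28).

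LTBP2, a fibrillin-associated family member that does not bind latent TGF-β, changed the most of the 8 genes with TGF-β1. It was at 15.1, 18 and 16.7 CPM in con and 97.6, 97.8 and 105 in TGFB. The groups were far apart, and LTBP2 rose 6.04-fold (log2 2.59, SE 0.085, edgeR quasi-likelihood adjusted p = 9.29e-17). LTBP4, which binds latent TGF-β1 weakly and takes part in elastic fibre assembly, was at 169, 208 and 197 CPM in con and 355, 344 and 380 in TGFB. It rose 1.88-fold with no overlap between groups (log2 0.91, SE 0.089, edgeR quasi-likelihood adjusted p = 3.03e-08).

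LTBP1 and LTBP3, the family members that bind latent TGF-β covalently and direct it to the matrix, moved little with TGF-β1. LTBP1 was at 34.8, 39.6 and 34.6 CPM in con and 43, 44.4 and 45.2 in TGFB, separate but close (log2 0.28, SE 0.083, edgeR quasi-likelihood adjusted p = 0.0146). LTBP3 was at 136, 154 and 150 CPM in con and 174, 171 and 193 in TGFB (log2 0.29, SE 0.1, edgeR quasi-likelihood adjusted p = 0.041). Both groups of LTBP3 values were also separate, but these 2 calls depended on the processing: scaling to library size alone gave a log2 value of 0.15 for each, neither past the threshold, and neither passed on log2(FPKM + 1) values. LTBP3 also did not pass on log2(FPKM + 0.1) values (0.29, limma adjusted p = 0.144). Of the 11 settings other than leaving out a library, LTBP1 thus lost its call in 2 and LTBP3 in 3. The LTBP1 call was lost without con replicate 1 or 3 or TGFB replicate 3 (log2 0.25, 0.25 and 0.26). The LTBP3 call was lost without any of the 3 con libraries, any of the 3 TGFB libraries or SiNAT10 replicate 2, at log2 values of 0.22 to 0.32. LRRC32 was at 1.63, 2.37 and 2.34 CPM in con and 2.78, 3.17 and 3.98 in TGFB. All its TGFB values were above the con values, yet it did not pass (log2 0.65, 95% interval 0.07 to 1.23, edgeR quasi-likelihood adjusted p = 0.102). It did pass with limma-voom (limma adjusted p = 0.0415) and when only the con and TGFB libraries were fitted (edgeR quasi-likelihood adjusted p = 0.0262).

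The second comparison set the NAT10 siRNA against no siRNA in cells without TGF-β1. Of the 8 genes, 7 were lower with the siRNA and none was higher, TGFB3 being the gene that did not pass. Over all tested genes, 52.8% passed this test, with 26.4% lower and 26.4% higher. The median log2 fold change was −0.79 over the 8 genes and 0.019 over all tested genes. SiNAT10 is compared with the same con libraries as TGFB was, so these comparisons share their controls. The summed stellate cell and myofibroblast markers, 1830 to 1910 CPM in SiNAT10 against 4530 to 4780 in con, moved in the same direction as the 7 genes. COL1A1 carried much of that sum, with a mean of 3041 CPM in con and 880.1 in SiNAT10, and it is also among the readouts of TGF-β signalling counted below.

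TGFB2 showed the lowest ratio to con of the 8 genes. It was at 7.58, 8.57 and 11.5 CPM in SiNAT10, against 72.9 to 81.7 in con. All 3 siRNA libraries lay far below the controls, and TGFB2 was 8.29-fold lower (log2 −3.05, SE 0.12, edgeR quasi-likelihood adjusted p = 1.6e-15). TGFB1 was at 134, 126 and 105 CPM in SiNAT10 against 182 to 202 in con, lower in each library with no overlap (log2 −0.66, SE 0.078, edgeR quasi-likelihood adjusted p = 1.71e-07). TGFB3 was at 3.12, 1.86 and 2.68 CPM in SiNAT10, a range that overlapped con (log2 0.34, 95% interval −0.14 to 0.83, edgeR quasi-likelihood adjusted p = 0.226). Of the 3 ligand genes, 2 thus passed the test, both lower.

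Among the binding proteins, LRRC32 and LTBP4 had the lowest ratios. LRRC32 was at 0.618, 0.75 and 0.251 CPM in SiNAT10 against 1.63 to 2.37 in con (log2 −1.96, SE 0.33, edgeR quasi-likelihood adjusted p = 3.04e-05). Its groups did not overlap, and the siRNA libraries of both siRNA groups held 7 to 21 counts of it, against 56 to 118 in the others. The 5 platelet and megakaryocyte markers summed to 11.6 to 12.1 CPM in con, 8.21 to 10.2 in TGFB, 4.05 to 6.28 in SiNAT10 and 3.01 to 6.52 in SiNAT10_TGFB. PF4 and PPBP were at 0 throughout, and only ITGA2B and GP1BA reached a mean of 1 CPM. The part of these marker levels in the LRRC32 result was not tested. LTBP4 was at 84.1, 80.7 and 62.7 CPM in SiNAT10 against 169 to 208 in con (log2 −1.34, SE 0.091, edgeR quasi-likelihood adjusted p = 2.66e-11). LTBP3 was at 89.3, 82.7 and 61.4 CPM against 136 to 154 (log2 −0.92, SE 0.1, edgeR quasi-likelihood adjusted p = 1e-07). For LTBP1, LTBP3, LTBP4, LRRC32 and TGFB1, SiNAT10 replicate 3 was the lowest of its group, and for TGFB2 it was the highest. LTBP1 was at 26.9, 25.9 and 24.7 CPM against 34.6 to 39.6, a smaller and still separate difference (log2 −0.49, SE 0.086, edgeR quasi-likelihood adjusted p = 4.02e-05).

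LTBP2 differed least of the 7 called genes between SiNAT10 and con. It was at 13.1, 15.4 and 14.3 CPM in SiNAT10 and 15.1, 18 and 16.7 in con, with overlapping ranges (log2 −0.22, SE 0.09, edgeR quasi-likelihood adjusted p = 0.0444). The call was lost under 9 of the 11 settings other than leaving out a library, at log2 values of −0.22 to 0.03. It was also lost without con replicate 2 or 3, SiNAT10 replicate 1 or 3, or SiNAT10_TGFB replicate 2, at log2 values of −0.22 to −0.16.

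The same siRNA was then compared in cells that had received TGF-β1. Here too 7 of the 8 genes were lower with the siRNA, TGFB3 again not passing. Of all tested genes, 53.1% passed, with 26.8% lower and 26.3% higher, and the median log2 fold change was −1.2 over the 8 genes and 0.008 over all tested genes.

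TGFB2 was at 22.1, 17.9 and 24.8 CPM in SiNAT10_TGFB, against 227 to 244 in TGFB. No library came near the other group, and TGFB2 was 10.9-fold lower (log2 −3.44, SE 0.11, edgeR quasi-likelihood adjusted p = 4.45e-17). TGFB1 was at 245, 219 and 213 CPM against 483 to 543, which was 2.29-fold lower without overlap (log2 −1.19, SE 0.077, edgeR quasi-likelihood adjusted p = 8.33e-12). TGFB3 was at 2.32, 2.42 and 2.1 CPM and overlapped its TGFB range of 2.3 to 2.56 (log2 −0.11, 95% interval −0.59 to 0.37, edgeR quasi-likelihood adjusted p = 0.719).

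LRRC32 was at 0.59, 0.691 and 0.435 CPM in SiNAT10_TGFB against 2.78 to 3.98 in TGFB, 5.76-fold lower (log2 −2.53, SE 0.33, edgeR quasi-likelihood adjusted p = 6.93e-07). LTBP4 was at 143, 136 and 123 CPM against 344 to 380 (log2 −1.42, SE 0.09, edgeR quasi-likelihood adjusted p = 5.69e-12). LTBP3 was at 82.5, 85.1 and 66.9 CPM against 171 to 193 (log2 −1.2, SE 0.1, edgeR quasi-likelihood adjusted p = 1.28e-09). In each of these genes all siRNA libraries lay below all TGFB libraries. LTBP1 was at 27.9, 25.5 and 22.9 CPM against 43 to 45.2 (log2 −0.8, SE 0.085, edgeR quasi-likelihood adjusted p = 4.13e-08). LTBP2 was at 77.4, 73.1 and 66.8 CPM against 97.6 to 105, lower in every library (log2 −0.47, SE 0.078, edgeR quasi-likelihood adjusted p = 2.09e-05).

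Within the cells that had received the siRNA, 4 of the 8 genes were higher with TGF-β1: TGFB1, TGFB2, LTBP2 and LTBP4. TGF-β1 and a possible difference in time after transfection cannot be told apart in this comparison. Over all tested genes 11.1% passed, 5.92% as higher and 5.15% as lower, and the medians of the log2 fold change were 0.45 over the 8 genes and −0.004 over all tested genes. LTBP2 rose by 2.35 on the log2 scale (SE 0.087, edgeR quasi-likelihood adjusted p = 2.4e-15), TGFB2 by 1.23 (SE 0.12, edgeR quasi-likelihood adjusted p = 8.51e-08), TGFB1 by 0.89 (SE 0.078, edgeR quasi-likelihood adjusted p = 1.13e-08) and LTBP4 by 0.82 (SE 0.091, edgeR quasi-likelihood adjusted p = 5.56e-07). For these 4 genes the SiNAT10 and SiNAT10_TGFB libraries did not overlap. The others did not pass, with log2 values of −0.02 for LTBP1 (95% interval −0.2 to 0.16), 0.01 for LTBP3 (−0.21 to 0.22), 0.08 for LRRC32 (−0.71 to 0.87) and −0.16 for TGFB3 (−0.65 to 0.32). For LTBP1 the ranges were 24.7 to 26.9 and 22.9 to 27.9 CPM, and for LTBP3 61.4 to 89.3 and 66.9 to 85.1 CPM, overlapping in each case.

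**Figure D2:**
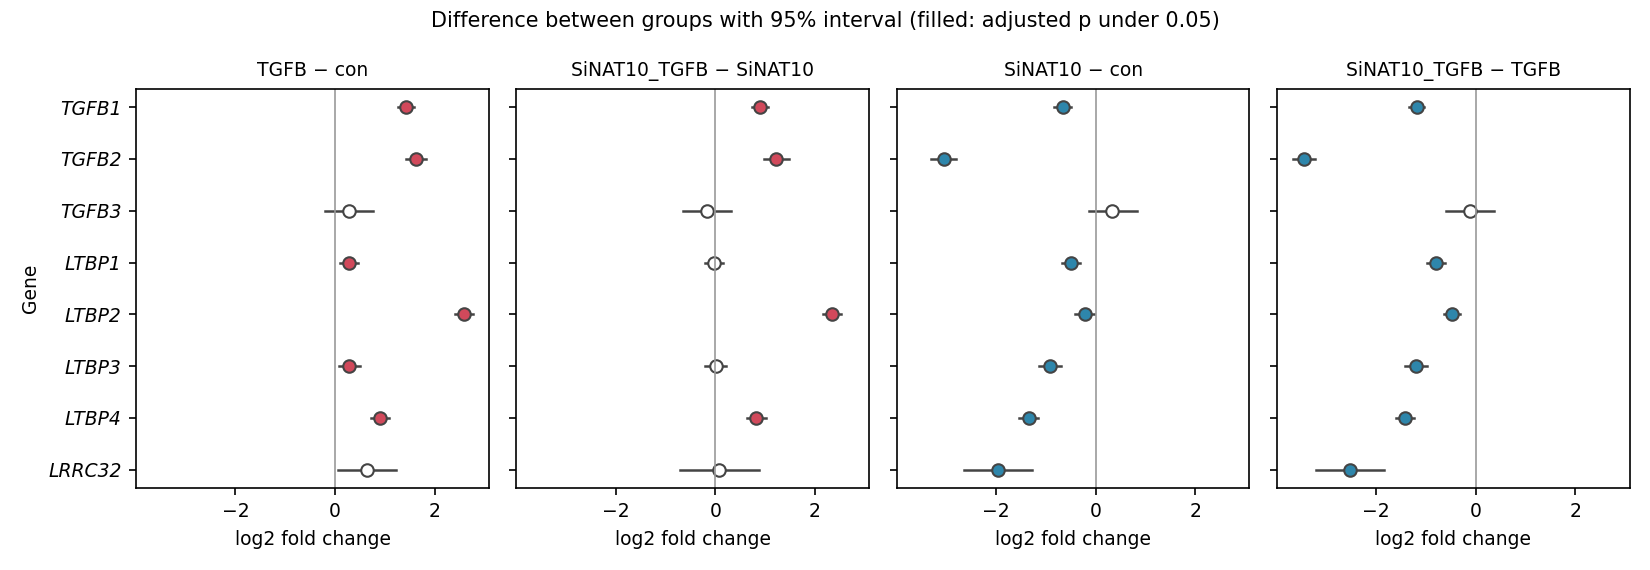
Log2 fold change of each gene (horizontal axis) in 4 comparisons, as points with 95% intervals from edgeR's quasi-likelihood fit, filled where the adjusted p was under 0.05. TGF-β1 panels show LTBP2 farthest to the right (2.59 and 2.35), and siRNA panels show TGFB2 farthest to the left (−3.05 and −3.44), with TGFB3 open in all 4.

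Whether the response to TGF-β1 differed with the siRNA was tested as an interaction, the TGF-β1 effect with the siRNA minus that without it. The effect with the siRNA may include a difference in time after transfection. Of the 8 genes, 1 passed, TGFB1, where the effect was smaller with the siRNA by 0.53 on the log2 scale (log2 −0.53, SE 0.11, edgeR quasi-likelihood adjusted p = 0.0046). Over all tested genes 3.85% passed this test, 1.94% as higher and 1.91% as lower. The remaining genes had negative values too, from −0.57 in LRRC32 (95% interval −1.56 to 0.42) to −0.09 in LTBP4, none past the threshold, and the median was −0.35 over the 8 genes and 0.004 over all tested genes. TGFB2 was at −0.39 (edgeR quasi-likelihood adjusted p = 0.204) and passed without SiNAT10 replicate 1 (−0.52, edgeR quasi-likelihood adjusted p = 0.0491), without the count filter (−0.37, edgeR quasi-likelihood adjusted p = 0.0475) and with the G+C trend removed (−0.37, edgeR quasi-likelihood adjusted p = 0.0456). LTBP3 was at −0.28 and passed without SiNAT10 replicate 3 (−0.43, edgeR quasi-likelihood adjusted p = 0.0198). The TGFB1 call was lost on log2(FPKM + 1) values (−0.53, limma adjusted p = 0.212).

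Cells given both the siRNA and TGF-β1 were also set against untreated cells. In this comparison 7 of the 8 genes passed, 2 as higher and 5 as lower, against 54.6% of all tested genes, 27.3% in each direction. The median log2 fold change was −0.51 over the 8 genes and 0.013 over all tested genes. LTBP2 was higher by 2.13 (SE 0.085, edgeR quasi-likelihood adjusted p = 1.62e-15) and TGFB1 by 0.22 (SE 0.077, edgeR quasi-likelihood adjusted p = 0.0166) on the log2 scale. The TGFB1 call was lost without con replicate 1 (0.18) and without SiNAT10_TGFB replicate 1 (0.16), and on log2(FPKM + 1) values (0.23, limma adjusted p = 0.202). LRRC32 (log2 −1.88), TGFB2 (−1.82), LTBP3 (−0.91), LTBP4 (−0.52) and LTBP1 (−0.51) were lower, and TGFB3 was at 0.18 (95% interval −0.31 to 0.67). With a trend on transcript G+C removed, LTBP4 was at −0.02 and no longer called, and LTBP3 was at −0.42 and TGFB1 at 0.67. TGFB2 in these cells, at 17.9 to 24.8 CPM, thus lay below its untreated level of 72.9 to 81.7 CPM although it was higher with TGF-β1 within the siRNA-treated cells.

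The make-up of the ligand pool was described by summing FPKM over the 3 ligand genes in each library. The sum was 72.1 to 77 in con, 197 to 212 in TGFB, 35.2 to 43.7 in SiNAT10 and 71 to 80.8 in SiNAT10_TGFB, so the con and SiNAT10_TGFB ranges overlapped. TGFB2 made up 18.8 to 21.9% of that sum in con and 20.8 to 24.1% in TGFB, but 3.38 to 6.35% in SiNAT10 and 4.86 to 6.8% in SiNAT10_TGFB. In deposited FPKM, con and SiNAT10_TGFB therefore had ligand RNA sums that overlapped and TGFB2 shares that did not. The sums are mostly TGFB1, whose difference between these groups moved from 0.22 to 0.67 on the log2 scale with the G+C trend removed, and the overlap was not examined on that scale. TGFB3 was 0.237 to 0.251% of the sum in TGFB and at most 1.55% in any library. These are shares of RNA and say nothing of protein.

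The binding protein pool was summed over LTBP1 to LTBP4. It was 40.4 to 47.9 FPKM in con, 75.7 to 83.5 in TGFB, 18.6 to 24.2 in SiNAT10 and 32.2 to 38.1 in SiNAT10_TGFB. LTBP2 made up 4.04 to 4.12% of it in con and 13.9 to 14.2% in TGFB, 5.95 to 8.43% in SiNAT10 and 22 to 22.9% in SiNAT10_TGFB. By FPKM, LTBP4 was the largest contributor in each library, from 41.5 to 42.9% in SiNAT10 up to 55.9 to 56.6% in TGFB. Without division by length, mean CPM in SiNAT10 was 77.8 for LTBP3 and 75.8 for LTBP4. For every 100 FPKM of ligand RNA, the covalent binders LTBP1 and LTBP3 together had 24.9 to 26.4 FPKM in con and 26.5 to 28.3 in SiNAT10. With TGF-β1 this ratio was 11 to 11.7 without the siRNA and 13.6 to 16.4 with it, below both groups that had received no TGF-β1.

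**Figure D3:**
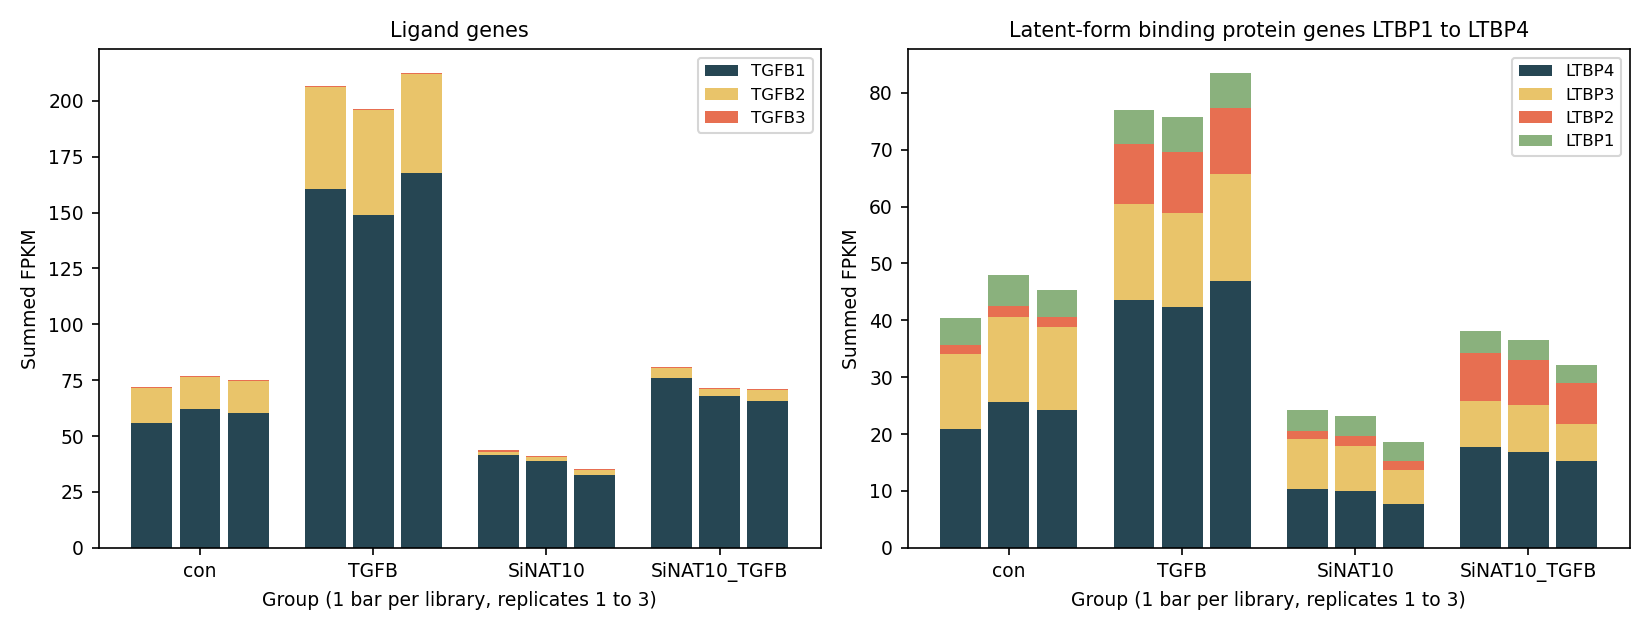
Summed FPKM of the 3 ligand genes (left) and of LTBP1 to LTBP4 (right), with 1 stacked bar per library and the share of each gene in colour. On the left the TGFB2 segment is 18.8 to 24.1% of the bar without the siRNA and 3.38 to 6.8% with it, and on the right the LTBP2 segment is largest as a share in SiNAT10_TGFB.

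The siRNA values of several of these genes changed when transcript base composition was taken into account; whether that trend is technical was not tested. TGFB2 had the lowest G+C of the 8 genes at 38.9%, followed by TGFB3 (48.9%), LTBP1 (51.7%), LTBP2 (57.2%), LRRC32 (58.3%), TGFB1 (63.5%), LTBP4 (66.7%) and LTBP3 (67.8%). When a smooth trend of each library's values on transcript G+C was removed, the siRNA effect without TGF-β1 moved from −0.66 to −0.19 in TGFB1, from −0.92 to −0.42 in LTBP3, from −1.34 to −0.83 in LTBP4 and from −0.22 to 0.03 in LTBP2. TGFB1, LTBP3 and LTBP4 still passed, with edgeR quasi-likelihood adjusted p values of 0.000779, 8.23e-08 and 1.05e-14, and LTBP2 did not (edgeR quasi-likelihood adjusted p = 0.793). TGFB2, at −3.26, and LTBP1, at −0.57, were slightly further from 0 than before, and LRRC32 was at −1.66. With TGF-β1 present the values after removal were −0.69 in TGFB1, −3.63 in TGFB2, −0.86 in LTBP1, −0.22 in LTBP2, −0.64 in LTBP3, −0.87 in LTBP4 and −2.22 in LRRC32, all still called. For SiNAT10_TGFB against con, where LTBP4 lost its call, its edgeR quasi-likelihood adjusted p was 0.731. For TGF-β1 against con the removal left the same 6 genes called, LTBP2 at 2.55 and TGFB2 at 1.65.

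**Figure D4:**
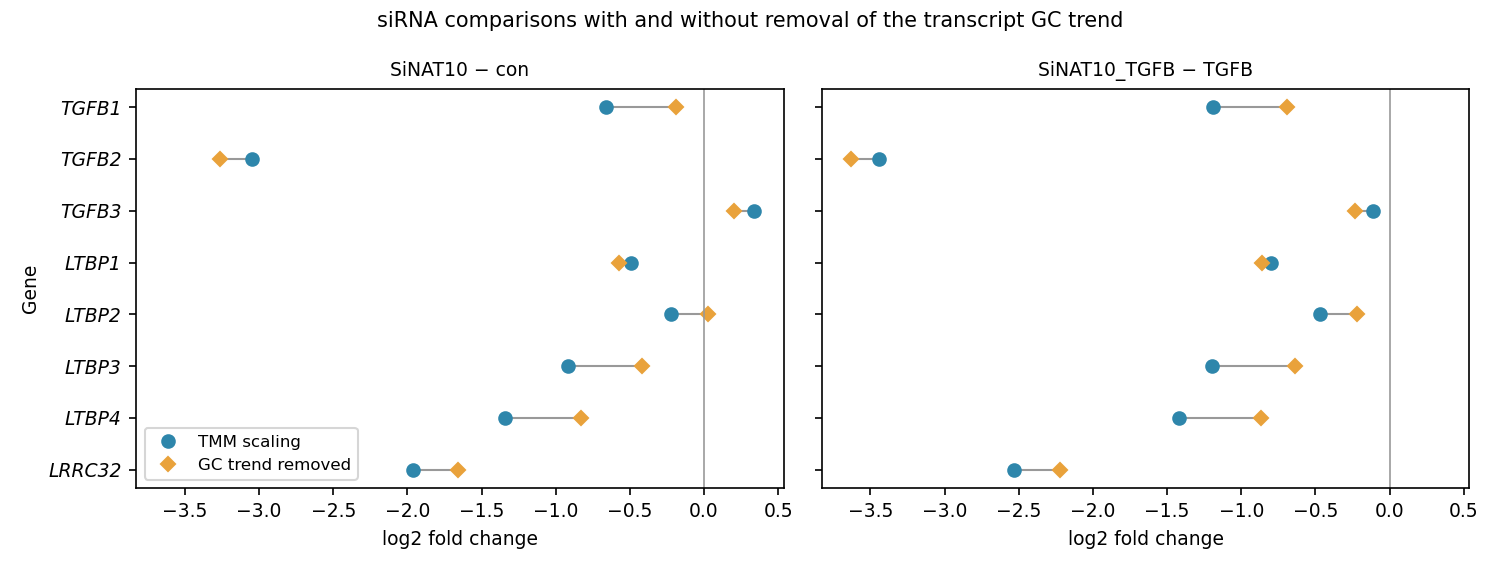
Log2 fold change of the siRNA comparisons (horizontal axis) for each gene with TMM scaling (circles) and after the transcript G+C trend was removed (diamonds). TGFB1, LTBP3 and LTBP4 shift toward 0, LTBP2 crosses 0 in SiNAT10 against con, and TGFB2 shifts slightly away from 0.

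Exons of other annotated genes overlap those of 6 of the 8, and no source used here states whether counting used strand. HNRNPUL1, on the opposite strand, shares 6.6% of the TGFB1 exon bases and had 9764 to 18461 counts per library, so reads at that end of TGFB1 cannot be told apart from it without strand. TGFB2-OT1 shares 26.6% of the TGFB2 exon bases on the same strand and had 0 counts in all libraries. The partners of TGFB3, LTBP1, LTBP2 and LRRC32 share 2.0 to 3.4% of exon bases and had at most 8 counts each.

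Genes that process and anchor latent TGF-β were counted next, as 11 tested genes of a list of 12. With TGF-β1 alone 5 were higher and 1 lower, the median over the list being −0.05. Of all tested genes, 24.1% passed with TGF-β1 alone, 11.1% with TGF-β1 in siRNA-treated cells and 3.85% in the interaction. Medians of all tested genes lay between −0.006 and 0.019 in every comparison. FN1, the fibronectin gene, rose by 2.28 on the log2 scale, FURIN, the protease that cuts the ligand precursors, by 1.07 and FBN1, the main fibrillin of microfibrils, by 0.94, while FBN2 fell by 0.31. With the siRNA alone 1 was higher and 7 lower (median −0.39), where 52.8% of all tested genes passed and 26.4% were lower, FN1 falling by 1.02, FURIN by 1.03 and FBN2 by 0.79, and TGM2, a cross-linking transglutaminase, rising by 0.68. With the siRNA on top of TGF-β1, 7 fell and none rose (median −0.69), where 53.1% of all tested genes passed and 26.8% were lower. The 3 with the smallest p were FN1 at −1.55, FURIN at −1.44 and FBN1 at −0.73. FURIN stood at 220.4 ± 20.7 CPM (SD, n = 3) in con, 462 ± 16.5 in TGFB, 108 ± 8.94 in SiNAT10 and 170.0 ± 12.1 in SiNAT10_TGFB. In siRNA-treated cells 4 were higher with TGF-β1 and none lower. The interaction was negative and called in 5, among them TGM2 (−0.93), FN1 (−0.53) and FBN1 (−0.39).

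Of 15 listed activators of the latent complex 13 were tested. TGF-β1 raised 11 and lowered 2 (median 0.63), where 24.1% of all tested genes passed. MMP2, a gelatinase, rose by 3.22, THBS1, which encodes thrombospondin 1, by 2.42 and the integrin subunit ITGAV by 1.41. PLAT, the tissue plasminogen activator, was at −0.96 and ITGB8 at −1.84 (SE 0.61). The ITGB8 and ITGB6 calls rest on low levels. ITGB8 was at 0.77 ± 0.35 CPM (SD, n = 3) in con and 0.212 ± 0.0926 in TGFB. ITGB6, among the 11 raised, was at 0.0804 ± 0.0697 in con and 0.788 ± 0.246 in TGFB. The siRNA alone raised 4 and lowered 4 (median −0.05), a share called near the 52.8% of all tested genes: PLAU, PLAT and ITGB5 rose by 0.77, 0.71 and 0.78, and THBS1, MMP2 and ADAMTS1 fell by 0.81, 0.81 and 0.37. With TGF-β1 present the siRNA raised 4 and lowered 7 (median −0.15; 53.1% of all tested genes passed), THBS1 at −1.68, ADAMTS1 at −0.84 and ITGAV at −0.7 against PLAU at 0.86. In siRNA-treated cells 9 were higher with TGF-β1 and 1 lower (11.1% of all tested genes passed), MMP2 by 3.39 and THBS1 by 1.54 upward. The interaction was called in 2 (3.85% of all tested genes passed), both negative: THBS1 (−0.87) and ADAMTS1 (−0.47).

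Of 9 listed extracellular antagonists, 3 had enough counts to be tested. In con and TGFB, FBLN1 was at 41.8 ± 3.84 and 45.6 ± 2.28 CPM (SD, n = 3). VASN was at 23.4 ± 2.45 and 62.7 ± 4.88 CPM, and HTRA1 at 6.91 ± 0.302 and 10.6 ± 1.98. VASN, a ligand-binding membrane protein, rose by 1.42 with TGF-β1 and HTRA1, a secreted serine protease, by 0.61. FBLN1, which encodes the matrix glycoprotein fibulin 1, fell with the siRNA by 0.55 without and by 0.57 with TGF-β1, and HTRA1 fell by 0.75 without it.

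All 6 receptors and co-receptors were tested. The siRNA raised 2 and lowered 2 without TGF-β1, and raised 2 and lowered 3 with it, while 52.8% and 53.1% of all tested genes passed in these comparisons, near equally up and down. TGFBR2, the ligand-binding kinase receptor, rose by 1.34 and 1.4, and TGFBR3 (betaglycan), which presents TGF-β2 to the kinase receptors, by 1.31 and 1.67. TGFBR1, the kinase that TGFBR2 activates, fell by 0.93 and 0.88, and the co-receptor ENG by 0.56 and 0.54. TGFBR3 was at 9.39 ± 0.274 CPM (SD, n = 3) in con, 4.52 ± 0.318 in TGFB, 23.3 ± 3.18 in SiNAT10 and 14.4 ± 1.2 in SiNAT10_TGFB. TGF-β1 alone lowered TGFBR3 by 1.05 and raised ENG by 0.35, and the other receptors did not pass.

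All 9 genes counted as readouts of TGF-β signalling were tested, and all 9 rose with TGF-β1 (median 1.84). Of all tested genes 24.1% passed there, 11.9% as higher. The list was chosen with earlier results of these data known, so the count of 9 is not independent evidence. PMEPA1, a feedback inhibitor, rose by 4.91, TGFBI by 2.86 and CTGF, a matricellular protein gene, by 2.43. In siRNA-treated cells 8 rose (11.1% of all tested genes passed), PMEPA1 by 4.64, TGFBI by 2 and SMAD7, an inhibitory SMAD, by 1.8. The siRNA alone raised 2 and lowered 6 (median −0.3; 52.8% of all tested genes passed), with LDLRAD4 at 1.9, BHLHE40 at 1.05, COL1A1 at −1.79, TGFBI at −0.61 and PMEPA1 at −0.38. With TGF-β1 present it raised 1, LDLRAD4, and lowered 6 (median −0.66; 53.1% of all tested genes passed), COL1A1 by 2.47, CTGF by 1.79 and TGFBI by 1.47. The LDLRAD4 calls rest on low levels: 0.87 ± 0.425 CPM (SD, n = 3) in con, 3.12 ± 0.557 in TGFB, 3.25 ± 0.721 in SiNAT10 and 5.37 ± 0.31 in SiNAT10_TGFB. The interaction was negative and called in 4 (3.85% of all tested genes passed), including CTGF (−1.62), BHLHE40 (−1.09) and TGFBI (−0.87).

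Finally, the genes whose levels ran most alike to each ligand or binding protein were named, by Pearson's r of log2 CPM over the 12 libraries among 9649 genes with a mean of at least 10 CPM. These values describe libraries that share 4 treatments and carry no test. TGFB1 ran most like BMP1 (r = 0.997), PFKFB3 (0.996), FBN1 (0.994) and NUAK1 (0.994). TGFB2 ran most like COL3A1 (0.996), CXCL12 (0.995), AC117402.1 (0.994) and PARVA (0.994). LTBP2 ran most like PMEPA1 (0.996), ITGB3 (0.992), ADAM19 (0.991) and EML1 (0.991). LTBP1 was closest to LIMK2 (0.993), LTBP3 to KIF1C (0.996) and LTBP4 to ARHGEF40 (0.994). Between the 8 genes themselves, LTBP3 and LRRC32 had r = 0.99 and LTBP1 and LTBP3 0.97. LTBP2 and LTBP3 had r = 0.28, and TGFB3 had values of −0.13 to 0.17 with the other 7.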

How the data were processed

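Total RNA of 12 LX-2 libraries was sequenced. The submitters' processing notes name fastp, HISAT2 2.2.1 and the build hg38. For the counting tool, the annotation and the strand setting, no statement is given in the sources used here. The deposited gene counts, whole numbers made by the authors, were the values tested. FPKM deposited by the authors equalled counts over gene length and library total, up to 1 factor per library (0.9334 to 1.088). They were used for levels between genes and in alternatives. All 58735 identifiers had the start and end of GENCODE 29.

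Counts were filtered with edgeR's filterByExpr, which kept 99.88 to 99.93% of counts, and scaled by TMM (factors 0.922 to 1.07). All 12 libraries entered 1 quasi-likelihood fit of 4 group means (edgeR 4.0.16, R 4.3.3), with Benjamini-Hochberg adjustment over 18560 genes and calls at an adjusted p under 0.05. SE is the log2 fold change over the square root of F, and intervals are 95%. Alternatives used limma 3.58.1, DESeq2 1.42.0, other scalings, filters and designs, FPKM with pseudocounts of 1 and 0.1, removal of a G+C trend (natural spline, df 5), and each library left out in turn.

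The genes and lists were chosen with earlier results of these data known. From the other lists, called genes with the smallest p were named, at most 3 per direction, list and comparison. ITGB6 was named as well, for its low level. In the readout list, 1 gene is not reported here and was left out of the counts. Genes alike were the 4 with the highest r (prior count 2) for TGFB1, TGFB2, LTBP2 and any of the 8 called in at least 4 of 6 comparisons.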

Additional observations from a re-analysis of the deposited data

Results flagged for a closer look

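The response of TGFB1 RNA to TGF-β1 differed between cells with and without the NAT10 siRNA by an interaction test. TGFB1 rose by 1.42 on the log2 scale without the siRNA and by 0.89 with it, a difference of −0.53 (SE 0.11, edgeR quasi-likelihood adjusted p = 0.0046, n = 3 libraries per group). Over the settings tried the difference ran from −0.55 to −0.46, and over the libraries left out in turn from −0.63 to −0.45, with adjusted p values of 2.09e-06 to 0.212 by edgeR, DESeq2 or limma. The other 7 genes had differences of the same sign that did not pass. With no harvest time given for SiNAT10, TGF-β1 and time after transfection cannot be told apart in the siRNA-treated cells.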

How the results depend on the processing

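Of the log2 fold changes of the 8 genes, 496 kept their direction and side of the threshold under settings other than leaving out a library, 16 lost and 4 gained a call with the same direction, and 4 changed sign, 1 of them (LTBP2) with the loss of its call. Leaving out a library gave 549, 17, 2 and 8. The cause of these changes was not tested. LTBP2 in SiNAT10 against con changed to 0.03 with the G+C trend removed. With library size alone TGFB3 in SiNAT10_TGFB against TGFB changed to 0.02 and LTBP3 in SiNAT10_TGFB against SiNAT10 to −0.05, which upper-quartile scaling gave as −0.01. In the latter comparison, leaving out a library gave −0.35 to 0.01 for TGFB3, −0.09 to 0.05 for LTBP1, −0.14 to 0.12 for LTBP3 and −0.26 to 0.38 for LRRC32. On log2(FPKM + 1) values, LRRC32 differed by −0.39 in SiNAT10 against con, −0.62 in SiNAT10_TGFB against TGFB and −0.38 in SiNAT10_TGFB against con, still called. Its group means, 0.121 to 0.741 FPKM, lay under the added 1, which by arithmetic shrinks differences on the log2 scale.

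Genes called for TGF-β1 against con numbered 4472, and 2874 on log2(FPKM + 1) values; for TGF-β1 with the siRNA 2054 and 1304; and for the interaction 714 and 356, or 1421 with the G+C trend removed. Of the 8 genes, the interaction called 1, but 2 (TGFB1 and TGFB2) without a count filter, 0 on log2(FPKM + 1) values, 2 (the same pair) with the G+C trend removed and 1 to 2 when a library was left out. Over all genes the interaction called 880 of 37030 without a count filter and 513 to 970 when a library was left out. For the count of 0, from limma, 4 of the 8 had an unadjusted p under 0.05, as 4 did by edgeR and by DESeq2, which each called 1 after adjustment. Genes called among the 8 for TGF-β1 against con ranged from 4 to 7. Over the same settings 2874 to 6033 genes were called in all, of 17266 to 58735 tested. Both 2874 of 58735 (log2(FPKM + 1) values) and 6033 of 18560 (library size alone) came with 4 of the 8. Scaling to library size alone put the all-gene median (log2) at −0.14 for TGF-β1 against con and at 0.14 for SiNAT10_TGFB against TGFB. The share of calls that were higher was then 23.4% in place of 49.5%, and 61.3% in place of 49.6%. For TGF-β1 with the siRNA it was 36.7% in place of 53.5%, and for the interaction 68.9% in place of 50.4%.

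No pairing of libraries by replicate number was seen. Over 18 pairs with the same number the correlation of deviations from group means was −0.073 to 0.048, and over 36 others −0.068 to 0.087. Deviations of 3 libraries from their own mean are tied to each other, so these values cannot exclude a pairing. A fit with the replicate number as a block called 4113, 9459, 9579, 1806, 9847 and 591 genes, in the order TGFB against con, SiNAT10 against con, SiNAT10_TGFB against TGFB, against SiNAT10 and against con, and interaction, in place of 4472, 9808, 9857, 2054, 10136 and 714. Among the 8 genes it ended the LTBP2 call in SiNAT10 against con (−0.22, edgeR quasi-likelihood adjusted p = 0.0577) and no other. The fit of only 2 groups gives no interaction. LRRC32 and TGFB3 had at most 118 and 91 counts per library.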
